A study of Sus scrofa with 10 samples.

Results

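The genes described here encode parts of the cardiac sarcomere that anchor and align its filaments: titin (TTN), nebulette (NEBL), LDB3, alpha-actinin 2 (ACTN2), myozenin 2 (MYOZ2), telethonin (TCAP), the muscle LIM protein CSRP3, desmin (DES) and myomesin 1 (MYOM1). They were looked up by the gene name in the abundance table of each library. Of the 9 genes, 7 were found under their name among 35670 gene identifiers, of which 17640 carried a name in the file. TTN and LDB3 were not among those names, so under the name rule they have no value. Unnamed identifiers that lie at the RefSeq positions of TTN and LDB3 are described separately and are not counted as members.

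The Z disc is the border of the sarcomere, where alpha-actinin crosslinks the ends of actin filaments from neighbouring sarcomeres. Titin runs from the Z disc to the M band, works as a molecular spring and is held at the Z disc by telethonin, while myomesin ties titin and myosin together at the M band. Desmin filaments surround the Z discs and link them to each other and to the cell membrane. Variants in several of these genes are known causes of cardiomyopathy, and truncating titin variants are also known from atrial fibrillation.

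RNA from nuclei of sorted heart cardiomyocytes of wild-type minipigs (Sus scrofa) was sequenced in 3 libraries of deoxycorticosterone acetate (DOCA) with JK07 (libraries 8 to 10), 2 of DOCA alone (6 and 7) and 5 of control (1 to 5), which had received PBS. DOCA is a steroid that acts on the mineralocorticoid receptor, and the title of the series calls JK07 an ERBB4 agonist, ERBB4 being a neuregulin receptor of cardiomyocytes. The sources used here give no heart chamber, dose, time, age or sorting marker. The labels do not say that the libraries are separate animals, so p-values cover only the spread between these libraries, which may be technical. In bulk RNA, fewer cells of a type and less RNA per cell cannot be told apart.

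Both DOCA libraries stood apart in depth. Outside ribosomal RNA scaffolds, which took 77.6% to 90.8% of counts, and the mitochondrial genome, the libraries held 9.03 to 12.9 M (mega) estimated counts with DOCA plus JK07, 3.30 to 6.87 M with DOCA and 8.67 to 13.9 M in control. Of 13480 expressed genes, 1.50% to 5.78% were at 0 with DOCA plus JK07, 24.2% to 28.1% with DOCA and 1.02% to 5.17% in control. Mitochondrial genes took 4.40% to 8.26% of the counts outside ribosomal RNA with DOCA plus JK07, 0.488% to 2.58% with DOCA and 3.69% to 5.57% in control. These differences run along the group border of every comparison with DOCA below, and their part in the results was not tested. All 10 cardiomyocyte markers looked up were present in each group. Markers of fibroblasts, endothelium, mural cells and macrophages were also present in each group, 10 of 10 found for each type, with EMCN and LYVE1 at 0 in both DOCA libraries. The summed level of the fibroblast list ranged from 3018 to 8895 TPM (transcripts per 1000000, rescaled without ribosomal RNA) with DOCA plus JK07, from 2064 to 14429 with DOCA and from 3284 to 10362 in control. Endothelial markers summed to 393 to 679 TPM with DOCA plus JK07, 314 to 1124 with DOCA and 417 to 927 in control. Macrophage markers summed to 124 to 335 TPM with DOCA plus JK07, 136 to 403 with DOCA and 169 to 663 in control. Mural markers summed to 294 to 569 TPM with DOCA plus JK07, 173 to 471 with DOCA and 262 to 574 in control. The groups overlap for each of these lists. The ventricular and skeletal muscle lists, given under processing, were lower with DOCA than in both other groups. Of the 10 cardiomyocyte markers, 2 were lower with DOCA than in control and 0 higher, PLN and TNNC1 (log2 fold changes -3.37 and -1.56, edgeR adjusted p = 0.000471 and 0.0193), against 19.7% lower and 5.73% higher among all genes. Of the markers of other types above 0 in DOCA, ABCA8 of fibroblasts and RGS5 of mural cells were lower (-2.35 and -2.10, edgeR adjusted p = 0.00184 and 0.00579), and CLDN5 of endothelium was higher (1.12, edgeR adjusted p = 0.0228).

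Levels of the 7 genes are comparable with each other as deposited TPM, which is per transcript length. Deposited TPM includes the ribosomal RNA scaffolds, whose share of counts differed between libraries (77.6% to 90.8%). Their part in group differences of TPM was not tested. Nebulette, which binds actin filaments at the cardiac Z disc, and desmin were the most abundant. With DOCA plus JK07 the mean TPM fell in the order NEBL 490.3 ± 177, DES 168 ± 72.6, CSRP3 129.8 ± 16.3, MYOZ2 74.9 ± 22.9, ACTN2 66.5 ± 14.6, TCAP 48.6 ± 25.5 and MYOM1 23.9 ± 12.5 (SD, n = 3). With DOCA the order was DES 118 ± 33.6, NEBL 95.4 ± 27.8, CSRP3 54.9 ± 8.94, ACTN2 43.7 ± 17.4, TCAP 24.3 ± 3.06, MYOM1 8.32 ± 0.872 and MYOZ2 6.66 ± 0.368 (SD, n = 2). In control it was NEBL 299.6 ± 186, DES 144 ± 20.1, CSRP3 66.2 ± 26.5, TCAP 52.1 ± 9.97, MYOZ2 51.0 ± 10.7, ACTN2 40.0 ± 7.74 and MYOM1 19.0 ± 2.89 (SD, n = 5). MYOZ2 thus stood between CSRP3 and ACTN2 in the order of DOCA plus JK07 and between TCAP and ACTN2 in that of control, but last in both DOCA libraries.

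Some neighbours in that order did not separate in every library. MYOZ2 lay above ACTN2 in 2 of 3 DOCA plus JK07 libraries. DES lay above NEBL in 1 of 2 DOCA libraries, and CSRP3 above ACTN2 in 1 of 2. In control CSRP3 lay above TCAP in 3 of 5 libraries, and TCAP above MYOZ2 in 3 of 5. NEBL varied most, with 552, 290.5 and 628 TPM with DOCA plus JK07, 115 and 75.7 TPM with DOCA, and 145, 613, 213, 323 and 204 TPM in control. As TPM, its levels in DOCA lay below those of both other groups. Control libraries 2 and 4 reached into the range of DOCA plus JK07. On average over the 10 libraries it made up 40.9% of the summed TPM of the 7 genes (SD 12.4).

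**Figure D1:**
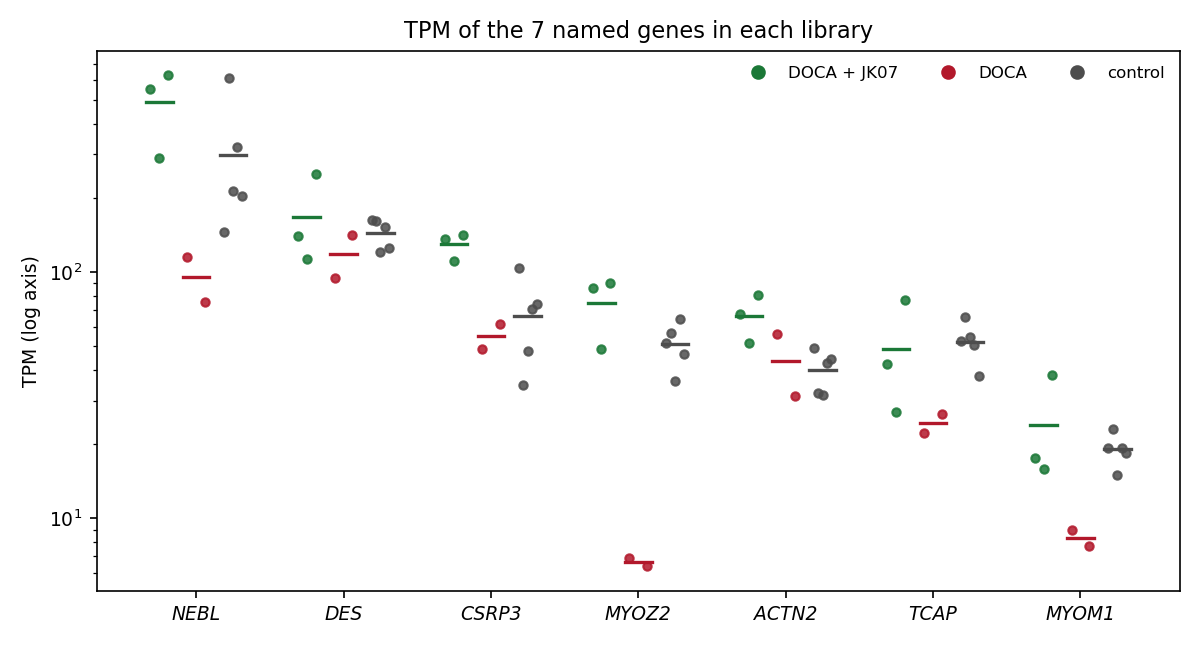
TPM of the 7 named genes in each library on a log axis, with points for libraries and bars for group means (n = 3 DOCA + JK07, 2 DOCA, 5 control). MYOZ2 stands at 6.92 and 6.40 TPM in the DOCA libraries, below all others, which run from 35.9 to 90.2 TPM.

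Of the 7 named genes, 1 was lower and 0 were higher with DOCA than in control, against 19.7% lower and 5.73% higher among all 17251 genes tested (edgeR's quasi-likelihood test, Benjamini-Hochberg adjusted p under 0.05). Their median log2 fold change was -0.54, against -0.63 over all genes. For DOCA plus JK07 against DOCA, 1 was higher and 0 lower, against 14.7% higher and 2.25% lower among all genes, with a median of 0.49 against 0.55. With counts this small, 1 of 7 is not set apart from the background share in either comparison. Between DOCA plus JK07 and control, 0 of 7 passed, as did 0 of 17251 genes (0% called in each direction). At an unadjusted p under 0.05 there were 803 genes, 1 of them among the 7. DESeq2 called 115 of all genes, and voom with quality weights 8.

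The member that passed was MYOZ2, or calsarcin 1, which binds alpha-actinin and the phosphatase calcineurin at the Z disc (ENSSSCG00000052601, chromosome 8, 104577790 to 104609328, minus strand, Sscrofa11.1). It had 100.1, 76.5 and 84.9 CPM (counts per 1000000 after TMM scaling) with DOCA plus JK07, 18.6 and 9.60 CPM with DOCA, and 68.8, 74.1, 53.6, 92.4 and 62.3 CPM in control. Both DOCA libraries lay below all 8 others, and the other groups overlapped. MYOZ2 was lower with DOCA than in control, by a log2 fold change of -2.31 (SE 0.33, edgeR adjusted p = 0.000729), and this call held in all 19 alternatives (-2.89 to -1.92). It was higher with DOCA plus JK07 than with DOCA, by 2.63 (SE 0.35, edgeR adjusted p = 0.000511), a call lost with quality weights per library (2.63, limma adjusted p = 0.0691). With DOCA plus JK07 against control the log2 fold change was 0.31 (SE 0.25, edgeR adjusted p = 1). The lowest count behind these values was 287, in library 7.

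Within a library, a ratio of 2 genes does not depend on how libraries are scaled. MYOZ2 over ACTN2, in TPM, was 0.949 to 1.27 with DOCA plus JK07, 0.124 to 0.204 with DOCA and 1.05 to 1.75 in control. DOCA stood below both other groups, which overlapped. MYOM1 over ACTN2 was also lowest with DOCA, at 0.160 to 0.246, against 0.260 to 0.476 with DOCA plus JK07 and 0.395 to 0.716 in control. TCAP over ACTN2 was 0.525 to 0.953 with DOCA plus JK07, 0.396 to 0.844 with DOCA and 0.851 to 2.03 in control, so that DOCA overlapped DOCA plus JK07. These ratios are descriptions without a test.

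**Figure D2:**
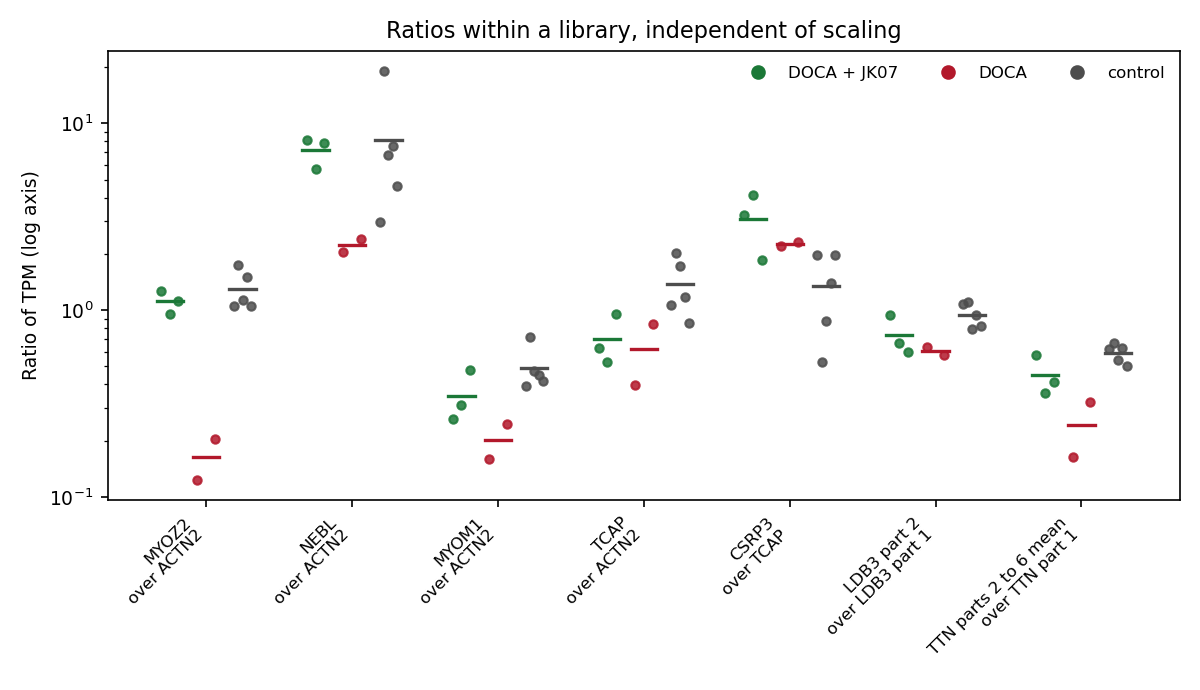
Ratios of TPM between genes of the same library on a log axis, with points for libraries and bars for group means (n = 3 DOCA + JK07, 2 DOCA, 5 control). MYOZ2 over ACTN2 lies at 0.124 to 0.204 in DOCA, below every other library.

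ACTN2, the alpha-actinin of heart and skeletal muscle (chromosome 14, 54666623 to 54742778, minus strand), had 239, 245 and 229.7 CPM with DOCA plus JK07, 457 and 143 CPM with DOCA, and 198, 128, 143, 187 and 181 CPM in control. In CPM the DOCA libraries lay apart from each other, library 6 above every other library and library 7 within the range of control. As deposited TPM library 6 had 56.0, below libraries 8 and 10 at 67.7 and 80.4. As TPM rescaled without ribosomal RNA and mitochondrial genes it had 580, above libraries 8 and 10 at 523 and 496. The TMM scaling factor of library 6 was 0.511, against 0.871 to 1.35 in the other libraries. The log2 fold change of DOCA against control was 0.84 (SE 0.37, edgeR adjusted p = 0.135). It was -0.23 without library 6 and 1.45 without library 7, where it passed (edgeR adjusted p = 0.00216), so the direction rests on which DOCA library is kept. With all libraries it passed in DESeq2 (0.92, DESeq2 adjusted p = 0.0473). All 3 DOCA plus JK07 libraries lay above all 5 controls, with a log2 fold change of 0.51 (SE 0.33, edgeR adjusted p = 1).

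The other Z disc members did not pass. NEBL (chromosome 10, 53602936 to 53958047, plus strand) averaged 1413 ± 240.4 CPM with DOCA plus JK07, 530.3 ± 348 with DOCA and 1028 ± 602 in control. Its DOCA values overlapped control in CPM, with 776 in library 6 against 484 and 688 in control libraries 1 and 5. Its log2 fold change was -0.96 for DOCA against control (SE 0.60, edgeR adjusted p = 0.277) and 1.41 for DOCA plus JK07 against DOCA (SE 0.65, edgeR adjusted p = 0.179). TCAP, which caps the Z disc end of titin (chromosome 12, 22651664 to 22653722, minus strand), averaged 47.6 ± 13.6 CPM with DOCA plus JK07, 43.3 ± 12.3 with DOCA and 62.8 ± 11.9 in control. CSRP3, a LIM protein of the Z disc and nucleus (chromosome 2, 40215353 to 40240616, plus strand), averaged 82.1 ± 11.05 CPM with DOCA plus JK07, 58.7 ± 14.5 with DOCA and 48.1 ± 18.4 in control. CSRP3 was the member under 0.05 before adjustment for DOCA plus JK07 against control, with a log2 fold change of 0.77 (SE 0.32, edgeR adjusted p = 1). As deposited TPM, all 3 of its DOCA plus JK07 values exceeded every control value, while its TMM-scaled CPM overlapped. As TPM rescaled without ribosomal RNA and mitochondrial genes these groups overlapped too, at 874 to 1347 with DOCA plus JK07 and 305 to 1015 in control.

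Desmin and myomesin differed by less than the test could call in the main fit. DES (chromosome 15, 121427642 to 121435423, plus strand) averaged 205 ± 40.9 CPM with DOCA plus JK07, 249 ± 31.1 with DOCA and 213 ± 24.8 in control, and all groups overlapped. MYOM1 (chromosome 6, 103451343 to 103597297, plus strand) averaged 71.7 ± 21.0 CPM with DOCA plus JK07, 46.9 ± 23.3 with DOCA and 69.0 ± 7.84 in control. Its log2 fold change of DOCA against control was -0.55 (SE 0.31, edgeR adjusted p = 0.237). MYOM1 passed in some alternatives of both comparisons with the DOCA libraries. As TPM, MYOM1 was 17.6, 15.9 and 38.3 with DOCA plus JK07, 8.94 and 7.70 with DOCA, and 19.3, 23.1, 15.0, 19.3 and 18.5 in control, so that DOCA lay below the other groups in TPM, while it overlapped them in CPM. DES and CSRP3 were above control with DOCA by TMM-scaled CPM (log2 0.23 and 0.29) and below it on the log2(TPM + 1) scale (-0.31 and -0.18), and neither difference passed. As TPM rescaled without ribosomal RNA and mitochondrial genes, DES averaged 1487 ± 723 with DOCA and 1461.5 ± 183 in control. CSRP3 averaged 684 ± 255 with DOCA and 678 ± 270 in control on that scale.

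At the position of titin, 6 unnamed identifiers overlapped the RefSeq TTN interval (chromosome 15, 84226953 to 84501320, minus strand, Sscrofa11.1) and covered 16.4% of it. They are numbered from the 5′ end. Part 1 (84484293 to 84527970) begins upstream of the RefSeq start, with 39.0% of its length inside the interval. Parts 2 to 5 lie together between 84399015 and 84426239, and part 6 (84226953 to 84230496) ends at the RefSeq 3′ end. The position match was made after the files were seen, and the files give these identifiers no gene name.

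With DOCA against control, 4 of these 6 identifiers were lower and 0 higher, against 19.7% lower and 5.73% higher among all genes. For DOCA plus JK07 against DOCA, 4 were higher and 0 lower, against 14.7% higher and 2.25% lower. All 6 overlap 1 RefSeq gene and may be fragments of it, so they are not independent and do not count as separate genes. Parts 2, 3, 4 and 6 passed in both, and since the comparisons share the DOCA libraries they are not independent. Between DOCA plus JK07 and control, 0 of 6 passed.

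Part 1 had 534, 496 and 755 CPM with DOCA plus JK07, 538 and 307 CPM with DOCA, and 314, 520.3, 432, 339 and 330.3 CPM in control. In CPM the groups overlapped, and the log2 fold change of DOCA against control was 0.13 (SE 0.31, edgeR adjusted p = 0.796). As deposited TPM, part 1 had 191 to 196 with DOCA, below 226 to 381 in control and 302 to 769 with DOCA plus JK07. Rescaled without ribosomal RNA and mitochondrial genes, DOCA at 1985 to 2773 overlapped control at 2213 to 3345, but not DOCA plus JK07 at 3399 to 4747. Part 3 had 864, 428 and 696 CPM with DOCA plus JK07, 156 and 228 CPM with DOCA, and 532, 912, 555, 575 and 469 CPM in control. Both DOCA libraries lay below all others. Its log2 fold change was -1.67 for DOCA against control (SE 0.38, edgeR adjusted p = 0.0123) and 1.79 for DOCA plus JK07 against DOCA (SE 0.41, edgeR adjusted p = 0.0140).

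Part 6, at the 3′ end, had 203, 134 and 217 CPM with DOCA plus JK07, 64.8 and 56.2 CPM with DOCA, and 166, 269, 191, 171 and 118 CPM in control. DOCA again lay below every other library. Its log2 fold change was -1.60 for DOCA against control (SE 0.34, edgeR adjusted p = 0.00870) and 1.61 for DOCA plus JK07 against DOCA (SE 0.36, edgeR adjusted p = 0.0134). Parts 2 and 4 changed by -1.13 and -1.42 with DOCA against control and by 1.39 and 1.71 with DOCA plus JK07 against DOCA. Part 5 did not pass, at -1.02 (edgeR adjusted p = 0.0827) and 1.28 (edgeR adjusted p = 0.0594). Of 20 settings, the main one included, it passed in 3 for the first comparison and in 5 for the second. Among them was DESeq2 (DESeq2 adjusted p = 0.0351 and 0.0195).

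With quality weights per library none of these 4 identifiers passed in either comparison (limma adjusted p = 0.0632 to 0.0938 for DOCA against control, 0.128 to 0.137 for DOCA plus JK07 against DOCA). Without library 6, parts 2, 3 and 4 no longer passed in either comparison. Without library 8 they no longer passed with DOCA plus JK07 against DOCA, nor did part 6 without library 7. With only these 2 groups in the fit, none of the 4 passed there (edgeR adjusted p = 0.0508 to 0.0934). Part 2 no longer passed with DOCA against control without library 4 or with upper quartile scaling (edgeR adjusted p = 0.0516 and 0.0552). With the 6 identifiers summed to 1 feature, a setting chosen after seeing the data, the log2 fold change was -0.92 for DOCA against control (SE 0.34, edgeR adjusted p = 0.0852) and 1.20 for DOCA plus JK07 against DOCA (SE 0.37, edgeR adjusted p = 0.0551).

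The level of the other identifiers relative to part 1 of the same library was lowest with DOCA. The mean TPM of parts 2 to 6 over that of part 1 was 0.362 to 0.577 with DOCA plus JK07, 0.164 to 0.323 with DOCA and 0.504 to 0.665 in control. DOCA overlapped neither other group, and the same held for each of parts 2 to 6 taken singly. Part 6 over part 1 was 0.246 to 0.346 with DOCA plus JK07, 0.110 to 0.167 with DOCA and 0.325 to 0.483 in control. The decrease did not grow steadily with distance from the 5′ end, as part 5 over part 1 was 0.602 to 0.884 with DOCA plus JK07, 0.330 to 0.591 with DOCA and 0.752 to 1.10 in control. The ratios were chosen after the values were seen and carry no test.

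**Figure D3:**
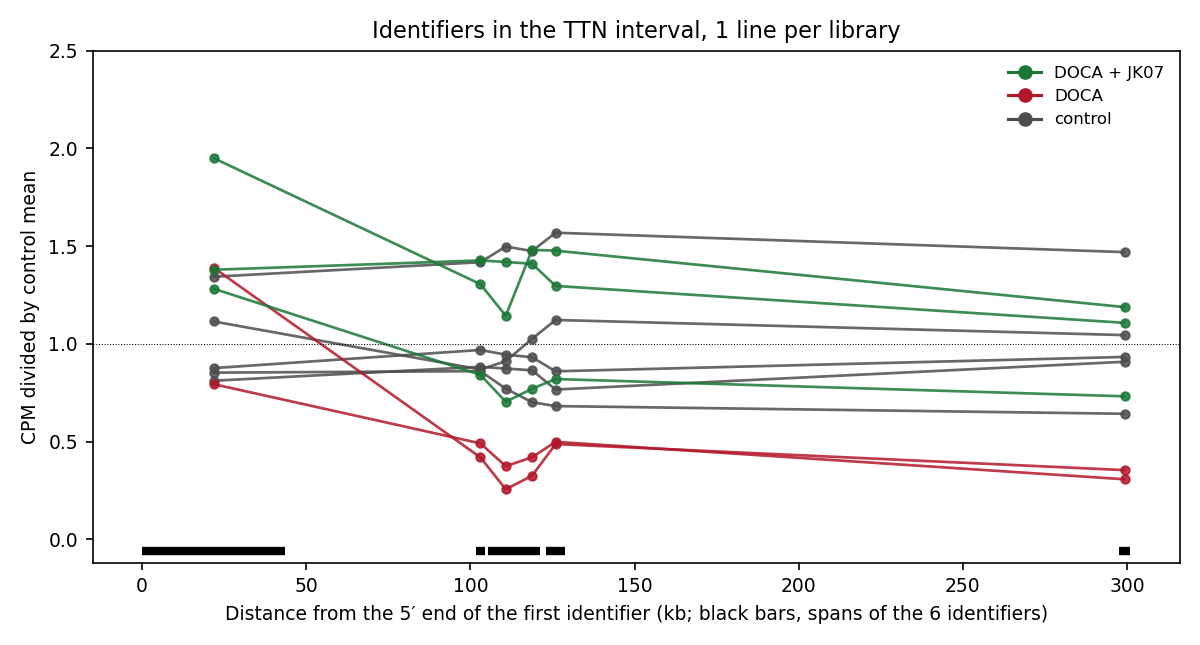
CPM of the 6 identifiers in the TTN interval, divided by the control mean of the same identifier, against distance in kb from the 5′ end of part 1, with 1 line per library. Both DOCA lines lie below all other libraries at parts 2 to 6, while at part 1 all 3 groups overlap.

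LDB3, also called cypher or ZASP, links alpha-actinin to protein kinase C. It was covered to 76.0% by 2 unnamed identifiers (RefSeq interval on chromosome 14, 87660961 to 87722249, plus strand), the first of which also touches OPN4. The second averaged 39.6 ± 7.49 CPM with DOCA plus JK07, 23.1 ± 12.7 with DOCA and 37.6 ± 6.40 in control. Neither passed in any comparison of the main fit, with log2 fold changes of -0.10 and -0.70 for DOCA against control (edgeR adjusted p = 0.870 and 0.155) and 0.62 and 0.78 for DOCA plus JK07 against DOCA (edgeR adjusted p = 0.312 and 0.172). The second passed in some alternatives of both comparisons.

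**Figure D4:**
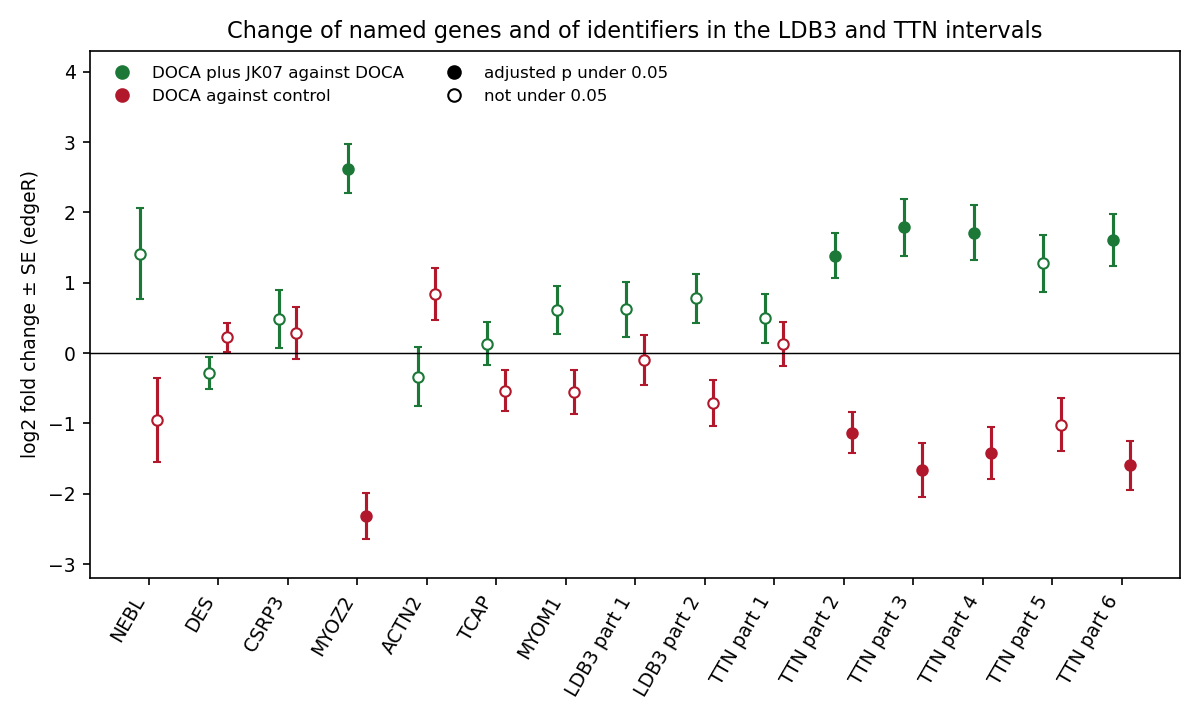
Log2 fold changes with SE from edgeR for the 7 named genes and for the identifiers in the LDB3 and TTN intervals, for DOCA plus JK07 against DOCA and for DOCA against control, filled where the adjusted p was under 0.05. MYOZ2 has the largest change plotted in both, at 2.63 and -2.31.

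A wider list of 65 Z disc, titin-linked, M band and intermediate filament genes held 61 found and 56 tested genes. With DOCA against control 12 were higher and 6 lower, 21.4% and 10.7% of those tested, against 5.73% and 19.7% of all genes, with a median log2 fold change of 0.47 against -0.63 over all genes. Without library 6 the median of the list was 0.13, against -0.95 over all genes. On the log2(TPM + 1) scale 5 of the 56 were higher and 12 lower, against 258 and 4844 of all 18115 genes. The median there was -0.21, against -0.38 over all genes. The sign of the list median turned with the scale, so neither direction holds for the list. In each of these settings its median lay above that of all genes. The list was chosen with earlier results of these data known, so its shares and medians beside those of all genes are no test of the list. Of 28 tested Z disc genes 7 were higher and 4 lower. Of 20 titin-linked and M band genes 3 were higher and 2 lower, and of 8 intermediate filament genes 2 were higher and 0 lower.

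The largest increases with DOCA among genes that passed were those of TRIM54, FLNC and ALPK3. FLNC, the actin crosslinker filamin C, averaged 1593 ± 1416 CPM with DOCA and 184 ± 76.2 in control, a log2 fold change of 3.12 (SE 0.55, edgeR adjusted p = 0.00286) that was 1.69 without library 6. ALPK3, a muscle alpha-kinase, changed by 2.99 (SE 0.52, edgeR adjusted p = 0.00257) and by 0.98 without library 6. TRIM54, a ubiquitin ligase family member, changed by 3.50 (SE 0.75, edgeR adjusted p = 0.00845), but by 0.62 without library 6. RBM20, the splicing factor of titin, averaged 62.9 ± 33.4 CPM with DOCA and 25.1 ± 3.37 in control, with a log2 fold change of 1.32 (SE 0.29, edgeR adjusted p = 0.00857) and 0.64 without library 6 (edgeR adjusted p = 0.113).

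PLEC, the cytolinker plectin that ties desmin to the Z disc, averaged 114 ± 17.7 CPM with DOCA plus JK07, 537 ± 229 with DOCA and 113 ± 27.9 in control. It was higher with DOCA than in control (log2 fold change 2.24, SE 0.30, edgeR adjusted p = 0.000444) and lower with DOCA plus JK07 than with DOCA (-2.24, SE 0.34, edgeR adjusted p = 0.00127). Both calls held without library 6 and without library 7. The first also held with quality weights (limma adjusted p = 0.0320), and the second did not (limma adjusted p = 0.0712).

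The largest decreases among genes that passed and were above 0 in both groups were those of CMYA5, SMYD1 and NBR1. CAPZA1 and LRRC39 had log2 fold changes of -3.12 and -1.73, each with 1 DOCA library at 0, and did not pass (edgeR adjusted p = 0.0576 and 0.297). CMYA5, or myospryn, a desmin-binding protein near the Z disc, averaged 66.8 ± 34.8 CPM with DOCA and 364 ± 176 in control (log2 fold change -2.44, SE 0.62, edgeR adjusted p = 0.0195, and 0.0960 without library 7). SMYD1, a muscle methyltransferase, changed by -2.13 (SE 0.58, edgeR adjusted p = 0.0269, and 0.112 without library 6). NBR1, an autophagy receptor that binds the titin kinase, changed by -1.37 (SE 0.28, edgeR adjusted p = 0.00612). CAVIN4, also called lower, has no fold, since both DOCA libraries held 0 counts of it.

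Between DOCA plus JK07 and DOCA, 4 of the 56 were higher and 2 lower, 7.14% and 3.57% of those tested, against 14.7% and 2.25% of all genes. MYOT, or myotilin, a Z disc actin crosslinker, averaged 24.2 ± 4.78 CPM with DOCA plus JK07 and 7.01 ± 1.68 with DOCA (log2 fold change 1.79, SE 0.30, edgeR adjusted p = 0.00249). NBR1 changed by 1.20 (SE 0.29, edgeR adjusted p = 0.0196, and 0.0613 without library 6). SYNPO2, an actin-binding protein of the Z disc, changed by 1.01 (SE 0.23, edgeR adjusted p = 0.0136). LMOD2, which lengthens thin filaments, averaged 75.5 ± 7.03 CPM with DOCA plus JK07 and 37.6 ± 3.16 with DOCA (log2 fold change 1.01, SE 0.22, edgeR adjusted p = 0.0102). Besides PLEC, ALPK3 was lower (-2.09, SE 0.61, edgeR adjusted p = 0.0450), at -0.07 without library 6. With quality weights per library 0 of the 56 passed here, and for DOCA against control PLEC alone did. None of the 56 passed with DOCA plus JK07 against control, where 0% of all genes were called by edgeR and DESeq2 called 1 of the 56.

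**Figure D5:**
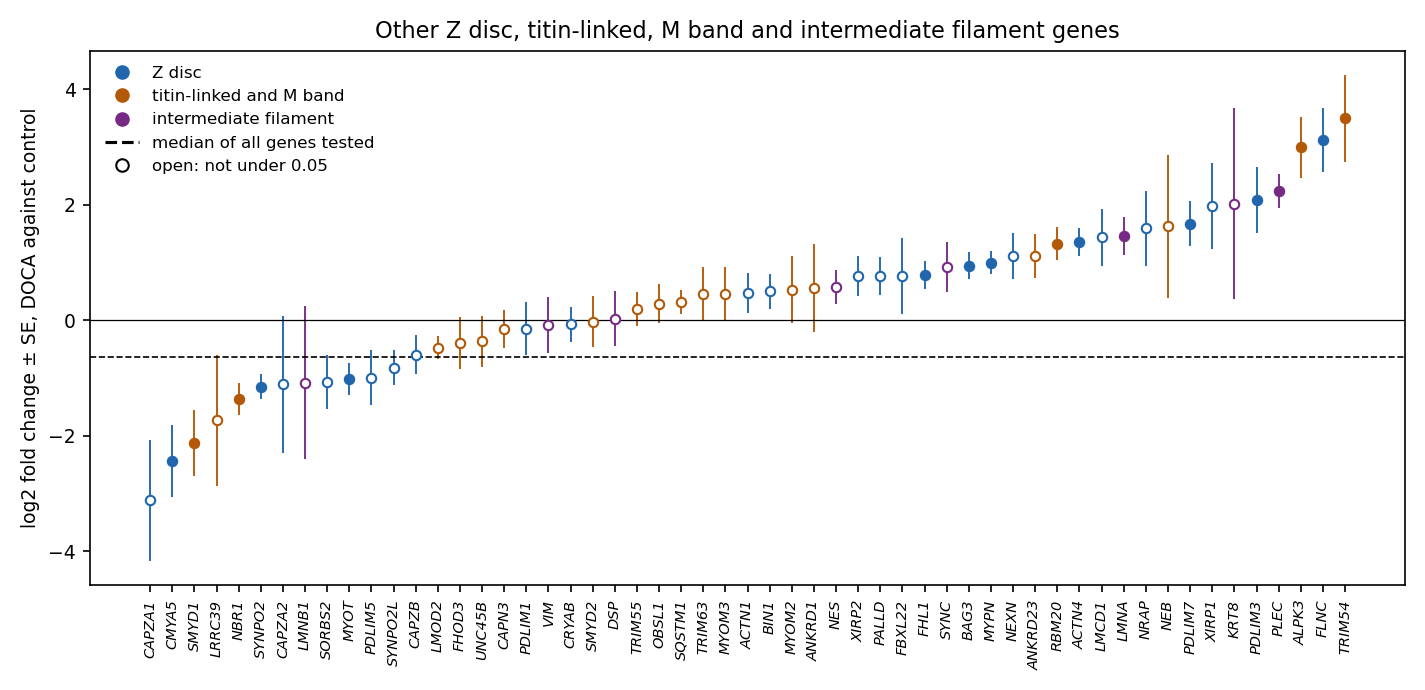
Log2 fold changes of DOCA against control with SE for 55 genes of the wider list, ordered by size, coloured by group of genes, filled where the edgeR adjusted p was under 0.05. The dashed line is the median of all genes tested, at -0.63, and CAVIN4, at 0 in both DOCA libraries, is left out.

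Among 2490 named genes with a mean of 10 CPM or more, the gene most like each member over the 10 libraries was found by the correlation of log2(CPM + 1). For MYOZ2 it was OGT (Pearson r = 0.989), which averaged 82.7 CPM with DOCA plus JK07, 31.9 with DOCA and 74.0 in control. For NEBL it was SLC9B2 (0.979), for ACTN2 PXN (0.945), for TCAP SDHA (0.924), for CSRP3 ANKRD1 (0.922), for MYOM1 ACVR1 (0.917) and for DES MTDH (0.796). The 5 genes nearest to TTN part 3 were TIA1 (0.994), WNK1 (0.982), MCCC1 (0.973), ELAPOR2 (0.966) and SUPT20H (0.962), while ADSS1 was the nearest to part 1 (0.934). Between members the highest correlations were those of MYOZ2 with NEBL and with MYOM1 (both 0.736). ACTN2 and MYOZ2 stood at -0.101. All points share the libraries and their depth, which differs between groups, so these are descriptions of likeness only.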

How the data were processed

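Nuclear RNA of sorted minipig cardiomyocytes was sequenced in 10 libraries. The submitters' processing notes name SAMtools, StringTie, edgeR and the build Sscrofa11.1. The sources used here do not state the aligner, versions or strand setting, so reads of overlapping or antisense genes cannot be told apart. Per the file headers, each library has coverage (signal), FPKM and TPM per gene. FPKM and coverage entered no test. The authors also deposited whole-number estimated counts without gene names, which were matched in sorted identifier order: an identifier was at 0 in both or in neither for 99.9972% to 100% of identifiers, against 60.0% to 68.0% when moved by 1 row. Coverage times length over 75 came within 0.5 counts of 80.9% of the 11109 counts of genes that span under 1000 bp.

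Counts were fitted in edgeR 4.0.16 (R 4.3.3) by the quasi-likelihood F test with TMM scaling and filterByExpr, with all 10 libraries in 1 model and adjustment by Benjamini-Hochberg over 17251 genes at 0.05. The SE is the absolute log2 fold change over the square root of F. Errors of CPM and TPM are SD over libraries. The fit was run on simulated data, drawn from a mean profile common to all libraries apart from changes set in DOCA. These data did not model the excess of genes at 0 in the DOCA libraries, so they cannot show how the fit handles it. Alternatives used limma 3.58.1 and DESeq2 1.42.0, other scalings and filters, and log2(TPM + 1) or log2(TPM + 0.1), which understates changes of low genes. Each library was also left out in turn. TTN and LDB3 were located by RefSeq positions on the same build. The members and lists were chosen with earlier results of these data known. All 9 members are named, and of the wider list at least the 3 largest calls in each direction. Marker lists of skeletal muscle and of atrial and ventricular cardiomyocytes were read as well. TNNT3, TNNI2, TNNC2, MYOD1 and MYF5 were at 0 in all libraries, and MYL2 in both DOCA libraries. Of the atrial markers, 5 of 6 were found and present in all groups. As TPM without ribosomal RNA, ventricular markers summed to 208 to 785 with DOCA plus JK07, 49.1 to 93.7 with DOCA and 238 to 381 in control. Skeletal muscle markers summed to 23.5 to 39.2, 3.32 to 8.65 and 16.0 to 36.0 in the same order. DOCA overlapped neither other group in these sums, and the cause was not tested. Sequences were not used here, and 1 gene of the wider list is not reported here.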

Additional observations from a re-analysis of the deposited data

Results flagged for a closer look

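Control library 2 stood apart from the other 4 controls in identifiers of the TTN interval, by a gap to its nearest neighbour beyond Dixon's critical value for 5 samples. In TTN part 2 it had 163 TPM, against 87.8 to 102 in the other controls, and 170.1 CPM, against 103 to 116. In TTN part 3 it had 226 TPM, against 113 to 130.1, and 912 CPM, against 469 to 575. In TTN part 4 it had 279.6 TPM, against 129.5 to 171. These are 5 of 30 groups tested, of which chance flags about 1 in 20, and neighbouring identifiers and the 2 scales are not independent.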

How the results depend on the processing

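No paired analysis was possible because the labels number the libraries from 1 to 10 and no number is shared between groups. With 2 DOCA libraries of low depth, the estimate of spread rests mainly on the other groups. Voom with quality weights called 161 genes for DOCA against control, where edgeR called 4391, and 5 for DOCA plus JK07 against DOCA, where it called 2930. For DOCA plus JK07 against DOCA, DESeq2 called 5045, log2(TPM + 1) 5524 and log2(TPM + 0.1) 6075. For DOCA plus JK07 against control DESeq2 called 115, voom 8 and log2(TPM + 1) 3, instead of 0. With a library left out, the count ran from 3307 to 5286 for DOCA against control and from 2277 to 4455 (without library 7) for DOCA plus JK07 against DOCA, and was 0 for DOCA plus JK07 against control.

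Of the 7 named genes, DOCA against control called 2 with DESeq2, 2 with log2(TPM + 1), 4 with log2(TPM + 0.1) and 1 to 2 with a library left out (2 without library 6 or 7), instead of 1. DOCA plus JK07 against DOCA called 0 with voom, 3 with log2(TPM + 1), 4 with log2(TPM + 0.1) and 1 to 2 with a library left out (2 without library 6 or 7), instead of 1. Upper quartile scaling moved the median log2 fold change of all genes by 0.24 and -0.24 in these comparisons. The share of higher calls became 34.68% (22.5% with TMM) for DOCA against control and 73.59% (86.76% with TMM) for DOCA plus JK07 against DOCA. The TPM fits made 5.06% and 3.79% higher in the first and 98.3% and 99.0% in the second. Voom made 41.6% and 20% higher.

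Directions turned in genes that had not passed. The TPM fits used deposited TPM, which includes ribosomal RNA, and the cause of the turns was not tested. For DOCA against control, log2(TPM + 1) and log2(TPM + 0.1) gave -0.18 and -0.18 for CSRP3, -0.31 and -0.31 for DES and -0.44 and -0.44 for TTN part 1. Upper quartile scaling gave 0.13 for LDB3 part 1. With a library left out, ACTN2 ran from -0.23 to 1.45, LDB3 part 1 from -0.70 to 0.33 and TTN part 1 from -0.33 to 0.47. For DOCA plus JK07 against DOCA, the TPM fits gave 0.63 and 0.64 for ACTN2 and 0.45 and 0.45 for DES. Upper quartile scaling gave -0.094 for TCAP. With a library left out, ACTN2 ran from -0.94 to 0.74 and TCAP from -0.17 to 0.46.

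For DOCA plus JK07 against control, the TPM fits gave 0.14 and 0.14 for DES, voom gave -0.011 for MYOM1, and RLE factors and DESeq2 gave -0.029 and -0.029 for TTN part 6. With a library left out, DES ran from -0.23 to 0.055, MYOM1 from -0.20 to 0.22, LDB3 part 2 from -0.045 to 0.22, TTN part 3 from -0.12 to 0.36 and TTN part 6 from -0.12 to 0.20.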
